A study of Homo sapiens with 4 samples.

Results

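XBP1, SEL1L, HYOU1 and SDF2L1 are 4 genes of protein quality control in the endoplasmic reticulum (ER), followed here in a colon carcinoma line treated with verticillin A, an epipolythiodioxopiperazine made by fungi. They are 4 of the 14884 genes that the platform annotation named and that could be tested. They were chosen by their changes in the very contrast described below, so those changes are given as a description, without a test. The cells were LS411N-5FU-R, a derivative of the human colon carcinoma line LS411N that had been made resistant to 5-fluorouracil. Control cells (0 nM, 2 arrays) and cells with 50 nM verticillin A (2 arrays) were both kept in culture for 3 days. All 4 arrays came from the same resistant derivative, and neither the parental line nor another clone was analysed here. The labels do not say whether a group's 2 arrays stand for separate cultures, so errors and p-values measure the spread between these arrays, which may be technical.

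Proteins that enter the ER are folded by chaperones, and those that fail are exported and degraded. When unfolded protein builds up, the membrane sensors IRE1 (gene ERN1), PERK (gene EIF2AK3) and ATF6 start the unfolded protein response (UPR). IRE1 splices the XBP1 mRNA, which then encodes an active transcription factor that induces chaperone and degradation genes in secretory cells, among them the goblet and Paneth cells of the gut. SEL1L is the partner of the ubiquitin ligase HRD1 (gene SYVN1) in ER-associated degradation. HYOU1 is a large ER chaperone related to the Hsp70 family that also acts as a nucleotide exchange factor for BiP (gene HSPA5). SDF2L1 is a small ER-resident protein that works with the BiP co-chaperones. The XBP1 probe set gives a single level for the gene and does not report its spliced share.

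The promoters are shown because ATF6 and XBP1 are known to act on ER stress elements in genes of this kind, and because the members differ in which element they hold. The sequences are the RefSeq windows of GRCh38.p14, from 250 bases before to 50 bases after the annotated start. Windows were found for 4 of the 4 genes, and XBP1 had a further window at a second annotated start. Both strands were searched for the ER stress element ERSE (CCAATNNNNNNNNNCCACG), for ERSE-II (ATTGGNCCACG) and for the UPR element UPRE (TGACGTGG). Capitals mark exact matches, and in SEL1L, which had none, the matches to ERSE and ERSE-II that differed at 1 letter.
XBP1 promoter, chr22:28800520-28800819, minus strand: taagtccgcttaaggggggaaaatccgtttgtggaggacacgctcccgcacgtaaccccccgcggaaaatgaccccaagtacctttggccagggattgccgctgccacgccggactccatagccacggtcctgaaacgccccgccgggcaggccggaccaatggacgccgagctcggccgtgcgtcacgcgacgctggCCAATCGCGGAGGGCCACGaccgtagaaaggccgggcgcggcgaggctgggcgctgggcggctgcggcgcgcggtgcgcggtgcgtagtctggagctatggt
SEL1L promoter, chr14:81533804-81534103, minus strand: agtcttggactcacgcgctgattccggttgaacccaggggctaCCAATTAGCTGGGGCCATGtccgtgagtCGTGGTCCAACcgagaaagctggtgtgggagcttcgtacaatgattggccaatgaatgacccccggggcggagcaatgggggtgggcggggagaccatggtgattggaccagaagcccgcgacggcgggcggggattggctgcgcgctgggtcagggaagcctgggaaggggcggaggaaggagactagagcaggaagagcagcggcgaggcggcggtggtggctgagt
HYOU1 promoter, chr11:119057156-119057455, minus strand: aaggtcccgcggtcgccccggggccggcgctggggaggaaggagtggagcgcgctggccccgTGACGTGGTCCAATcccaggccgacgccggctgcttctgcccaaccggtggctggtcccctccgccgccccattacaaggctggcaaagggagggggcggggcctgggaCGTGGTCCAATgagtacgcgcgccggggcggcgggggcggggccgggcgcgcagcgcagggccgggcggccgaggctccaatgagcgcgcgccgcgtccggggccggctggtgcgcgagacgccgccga
SDF2L1 promoter, chr22:21642052-21642351, plus strand: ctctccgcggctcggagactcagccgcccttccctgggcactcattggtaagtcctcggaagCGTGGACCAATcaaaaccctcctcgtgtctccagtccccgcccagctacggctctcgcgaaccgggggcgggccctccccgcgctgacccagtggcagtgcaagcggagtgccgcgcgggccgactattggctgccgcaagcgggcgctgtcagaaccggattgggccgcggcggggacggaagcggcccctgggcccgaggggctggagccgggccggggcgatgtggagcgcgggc

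The XBP1 window held 1 exact ERSE, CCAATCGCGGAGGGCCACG, with 33 bases between its end and the annotated start, and the second XBP1 window held none of the 3 motifs. HYOU1 held 2 exact copies of ERSE-II, both reading ATTGGACCACG on the minus side of the window, and an exact UPRE that overlapped the first of them. SDF2L1 held 1 exact ERSE-II, ATTGGTCCACG, also on the minus side. SEL1L held CCAATTAGCTGGGGCCATG and GTTGGACCACG, which differ at 1 letter from ERSE and ERSE-II. Of all 35116 promoter windows in the table, 0.0769% held an exact ERSE, 0.0541% an exact ERSE-II and 0.729% an exact UPRE. With 1 differing letter allowed, the shares were 1.55% for ERSE and 1.23% for ERSE-II. These are matches of letters and not measured binding sites.

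XBP1 had the largest difference of the 4 genes. Its log2 level was 9.31 and 9.35 on the control arrays and 8.59 and 8.59 on the verticillin A arrays. Both treated arrays lay below both control arrays, and the gap of 0.72 between the groups compares with a largest difference of 0.036 within a group. The means were 9.33 ± 0.03 and 8.59 ± 0.002 (SD, n = 2 per group), a log2 change of -0.74 ± 0.07 (moderated SE) or 1.67-fold lower. Of the 14884 changes ordered from the deepest fall upward, that of XBP1 stood at position 134.

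SEL1L, which stabilises the HRD1 ligase and links it to substrates in the ER lumen, was lower as well. The control arrays read 9.60 and 9.69 and the treated arrays 9.09 and 9.19, so the groups did not overlap. The log2 change was -0.51 ± 0.08 (SE), or 1.42-fold lower (9.65 ± 0.07 against 9.14 ± 0.07, SD, n = 2 per group), at position 401 from the deepest fall.

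HYOU1 was lower by its brighter probe set only. That probe set read 8.96 and 9.06 in control and 8.57 and 8.64 with verticillin A, without overlap, a log2 change of -0.41 ± 0.07 (SE) or 1.32-fold lower (9.01 ± 0.07 against 8.60 ± 0.05, SD, n = 2 per group). The other HYOU1 probe set read 3.79 and 4.01 in control and 3.91 and 3.82 with verticillin A, so its groups overlapped and its log2 change was -0.03 ± 0.11 (SE). Its values were near the low end of the scale, which began at 2.596, and no detection calls were used, so the data do not show whether it measures HYOU1 RNA. The mean of both HYOU1 probe sets changed by -0.22.

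SDF2L1 was the one member that was higher. Its levels were 6.74 and 6.76 on the control arrays and 7.18 and 7.31 on the treated arrays, and the gap of 0.418 between groups exceeded the largest difference within a group, 0.137. The log2 change was 0.49 ± 0.08 (SE), or 1.41-fold higher (6.75 ± 0.01 to 7.24 ± 0.10, SD, n = 2 per group). Ordered from the largest rise downward, this change stood at position 292.

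**Figure D1:**
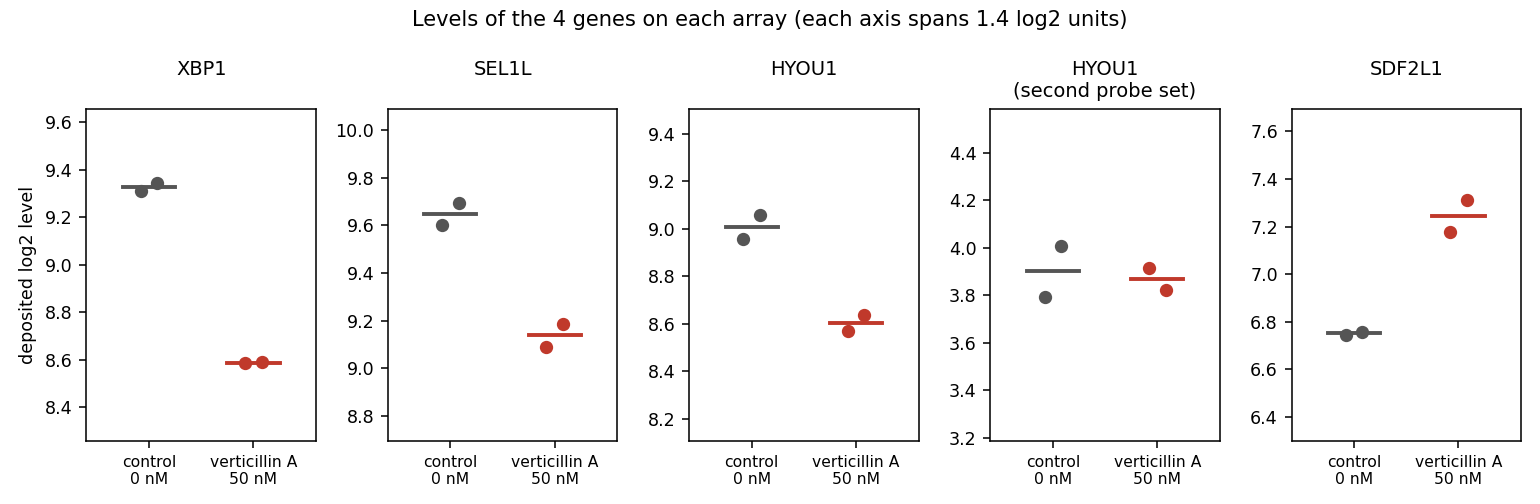
Deposited log2 level (vertical axis, 1.4 log2 units in every panel) of each probe set of the 4 genes in control cells (0 nM, grey) and with 50 nM verticillin A (red); points are arrays and lines are means of 2. The treated arrays lie below the controls for XBP1, SEL1L and the first HYOU1 probe set and above them for SDF2L1, while the second HYOU1 probe set, near 3.9, overlaps.

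The treated arrays lay beyond both control arrays for each of the 4 genes by the probe set used, an arrangement found in 54.8% of all genes tested. For scale, limma called 8.65% of all genes at an adjusted p under 0.05, 3.55% higher (528 genes) and 5.1% lower (759 genes). Median centring of the arrays turned this split to 750 higher and 668 lower. Since the members were chosen on this contrast, nothing is read from their own share of calls. The direction of each of the 4 changes was the same under every alternative run, but this was largely fixed in advance. As the groups did not overlap, leaving out 1 array could not reverse a change. Fitting over every probe set, leaving out dimmer genes, a mean-dependent prior and a replicate block alter only the error. XBP1 ranged from -0.76 to -0.70 on the log2 scale, SEL1L from -0.56 to -0.46, HYOU1 from -0.46 to -0.22 and SDF2L1 from 0.42 to 0.56.

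**Figure D2:**
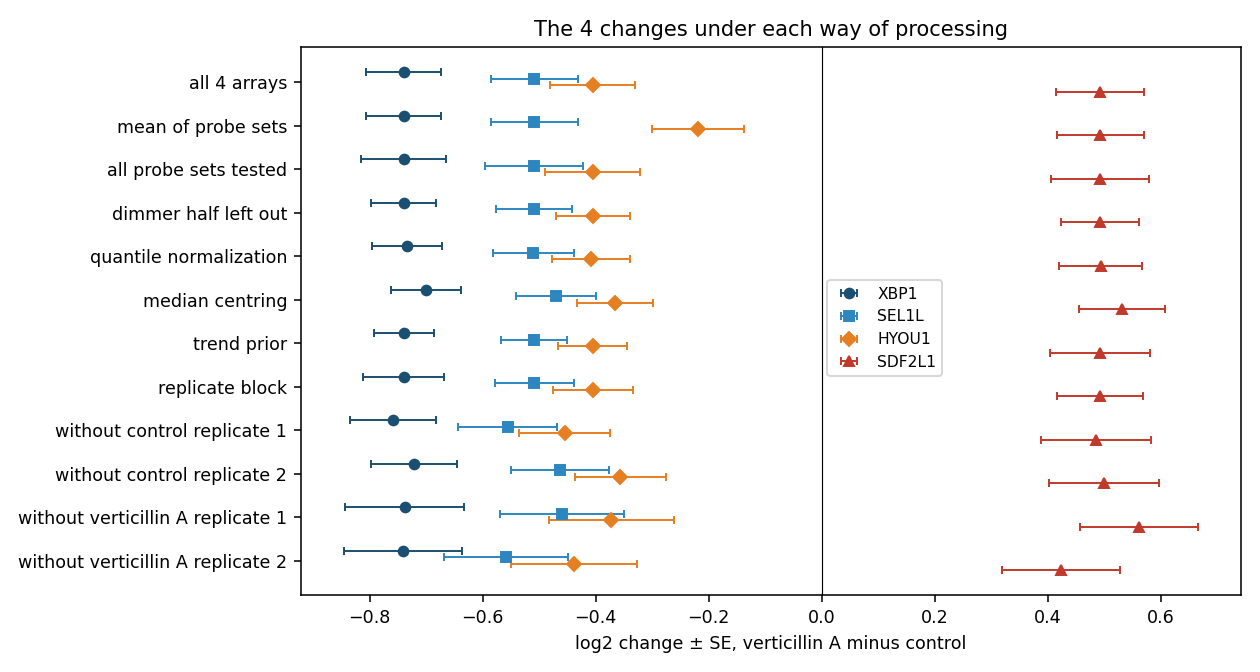
Log2 change with its moderated standard error (horizontal axis, verticillin A minus control) of the 4 genes from all 4 arrays and under each alternative (vertical axis). XBP1 stays between -0.76 and -0.70 and SDF2L1 between 0.42 and 0.56, whereas HYOU1 moves to -0.22 when its 2 probe sets are averaged.

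Likeness was measured as the Euclidean distance between 2 genes' log2 values over the 4 arrays, after each gene's mean was removed, and has no test. SEL1L and HYOU1 were the closest pair of members, at a distance of 0.107, where HYOU1 ranked 154 among the 14883 genes ordered by nearness to SEL1L. XBP1 lay 0.244 from SEL1L and 0.34 from HYOU1, and SDF2L1 lay 0.902 to 1.24 from the other members. The 3 genes nearest to XBP1 were the alanyl-tRNA synthetase gene AARS1, GLG1 and TRNP1, with log2 changes of -0.75, -0.71 and -0.72. Those nearest to SEL1L were LOC100505912, the sulfhydryl oxidase gene QSOX1 and the O-GlcNAc transferase gene OGT. Those nearest to HYOU1 were the kinase gene JAK1, OSBPL1A and KLF7. SDF2L1 was nearest to LIN52, to UFD1, a cofactor of ER-associated degradation, and to the vault protein gene MVP, with log2 changes of 0.49, 0.50 and 0.49.

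The other genes of the pathway were taken from 11 lists of ER and secretory pathway genes, some of which share genes. Without the 4 members these lists name 330 genes, of which 205 were measured. Of these, 8 were called higher and 31 lower by limma after Benjamini-Hochberg adjustment over all genes (19.0% of the 205, against 8.65% of all genes), with a median log2 change of -0.05 against -0.01 over all genes. In the 8 lists of ER machinery proper, which leave out the PERK and ATF4 targets, the substrates of IRE1-dependent decay and the secretory cell markers, 8 rose and 19 fell out of 179 (15.1%). At an unadjusted p under 0.05, 22 were higher and 58 lower (39.0% of the 205), against 26.7% of all genes (12.0% higher and 14.7% lower). The list of PERK branch and ATF4 targets held 11 of the 31 lower calls. The lists were chosen with earlier results of these data known, so these shares are a description and not an independent result. They also take no account of brightness. With genes dimmer than the median left out, 174 of the 205 remained, and limma called 13 higher and 48 lower. Of all 7442 genes kept, it called 1070 higher and 1329 lower. For both directions together, the share called was close to that of all genes kept. By direction the shares lay further apart, below that of all genes kept for higher calls and above it for lower calls. Any excess over genes of like brightness was not tested. The calls of the main fit depend on having all 4 arrays. Of the genes named here outside the 4 members, or by the rule for naming genes, 52 were called, and of these 9 (ERN1, CLGN, TUSC3, ASNS, DDIT3, DDIT4, PCK2, SESN2 and TRIB3) kept an adjusted p under 0.05 when either treated array was left out. When either control array was left out limma called 0 of the 52, although 52 of 52 kept their direction and an unadjusted p under 0.05.

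Of the 3 UPR sensor genes, ERN1 and ATF6 were lower. ERN1, which encodes the IRE1 sensor that splices XBP1 mRNA, read 8.73 and 8.84 in control and 7.67 and 7.55 with verticillin A, a log2 change of -1.17 ± 0.08 (SE, 2.26-fold lower, limma adjusted p = 0.00636). ATF6, a sensor that becomes a transcription factor once cleaved, read 10.75 and 10.68 in control and 10.00 and 10.03 with treatment (log2 change -0.69 ± 0.07, SE, limma adjusted p = 0.0113). EIF2AK3, which encodes PERK, missed the threshold, with levels of 8.45 and 8.51 against 8.18 and 8.01 (-0.38 ± 0.09, limma adjusted p = 0.0558). Its groups did not overlap, and it passed when genes dimmer than the median were left out (adjusted p = 0.0161) or the prior variance followed the mean level (adjusted p = 0.0109). Also called lower were ATF4, the transcription factor downstream of PERK (-0.47 ± 0.07), and CREB3L2, an ER-anchored transcription factor (-0.41 ± 0.07). Both calls were lost with the replicate block (limma adjusted p = 0.0524 and 0.0603). Among the 15 measured sensors and regulators besides XBP1, 4 fell and 0 rose in limma, with 5 and 0 at an unadjusted p under 0.05, and their median change was -0.16. The called genes went the same way as XBP1, and whether ERN1 differed more than XBP1 was not tested.

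Of 11 other measured genes of the ER Hsp70 system and lectin chaperones, only CLGN passed in the main fit. CALR, which was higher, passed with dimmer genes left out (limma adjusted p = 0.0366) or a mean-dependent prior (limma adjusted p = 0.00453). CANX, which was lower, passed with that prior only (limma adjusted p = 0.0159). CLGN encodes calmegin, a lectin chaperone known from the testis, and it was 2.24-fold lower (7.58 and 7.51 against 6.44 and 6.33, limma adjusted p = 0.00612). Of the 11, 2 were higher and 5 lower at an unadjusted p under 0.05. SDF2, the paralog of SDF2L1, read 7.86 and 7.81 in control and 8.02 and 7.99 with treatment (0.17 ± 0.07, limma adjusted p = 0.181). MANF, an ER stress-induced secreted factor, changed by 0.09 ± 0.08 and CRELD2, another ER stress-induced gene, by 0.18 ± 0.13, and the groups overlapped for both. The list's median was -0.04, with 7 of 11 changes negative, where 51.5% of all genes had a negative change. HSPA5, HSP90B1, DNAJB9 and PDIA4, the genes most used to read the UPR, have no probe set named in the annotation and were not analysed here.

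**Figure D3:**
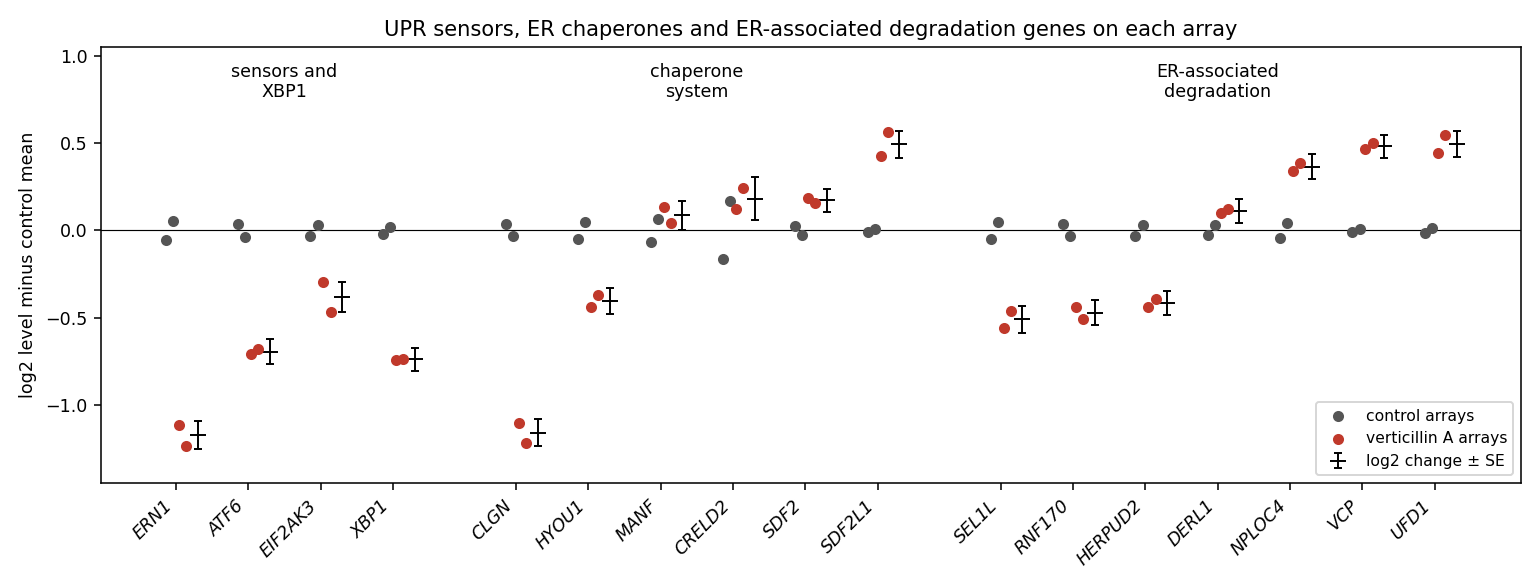
Log2 level minus the control mean (vertical axis) of sensors, chaperones and degradation genes on each control array (grey) and verticillin A array (red), with the log2 change and its standard error (black). ERN1, ATF6, XBP1, CLGN, HYOU1, SEL1L, RNF170 and HERPUD2 are lower with treatment, and SDF2L1, NPLOC4, VCP and UFD1 are higher.

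Around SEL1L, ER-associated degradation genes went both ways. VCP, the ATPase that pulls substrates out of the ER membrane, read 9.83 and 9.85 in control and 10.31 and 10.34 with verticillin A, a rise of 0.48 ± 0.07 (limma adjusted p = 0.0205). Its cofactors rose too, with UFD1 at 6.98 and 7.01 against 7.44 and 7.54 (0.50 ± 0.07, limma adjusted p = 0.023) and NPLOC4 at 11.03 and 11.11 against 11.41 and 11.46 (0.37 ± 0.07, limma adjusted p = 0.0411). These 3 genes encode the segregase complex, and the treated arrays lay above both control arrays for each of them. RNF170, an ER ubiquitin ligase, fell by 0.47 ± 0.07 and HERPUD2, a relative of the HRD1 complex scaffold HERPUD1, fell by 0.42 ± 0.07. The derlin gene DERL1, whose product belongs to the retrotranslocation channel, read 11.41 and 11.47 against 11.54 and 11.56 and did not pass (0.11 ± 0.07, limma adjusted p = 0.379). In all, 3 of the 35 other measured degradation genes rose, 2 fell and 30 did not pass (4 higher and 7 lower at an unadjusted p under 0.05), with a median of -0.05. Of the family of SEL1L, SEL1L3 was lower (10.24 and 10.42 against 9.75 and 9.82, -0.55 ± 0.09, limma adjusted p = 0.0274) and SEL1L2, dim at 3.91 to 4.10, did not pass. SYVN1, HERPUD1, OS9 and EDEM1, further core genes of this pathway, were not analysed here.

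The oxidative folding enzymes that passed were lower. Of 20 measured disulfide and proline isomerases, 4 fell and 0 rose (8 and 0 at an unadjusted p under 0.05, limma), and 17 of the 20 changes were negative, against 51.5% of all genes. The thioredoxin family genes TMX4 (-0.52 ± 0.08), TXNDC12 (-0.51 ± 0.07) and TMX3 (-0.32 ± 0.07) fell, as did QSOX1 (-0.50 ± 0.08). TMX3 lost its call after median centring (limma adjusted p = 0.0576).

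Glycosylation genes were split. Of 24 measured, 3 rose and 4 fell (5 and 7 at an unadjusted p under 0.05), with a median of 0.003. TUSC3, a thioredoxin-like subunit of the oligosaccharyltransferase, rose from 4.67 and 4.60 to 5.58 and 5.48 (0.90 ± 0.07, limma adjusted p = 0.00881), the largest rise among the 205 genes. DOLK, the dolichol kinase, rose by 0.48 ± 0.09 and DPM3, a dolichol-phosphate mannose synthase subunit named after its value was seen, by 0.39. GFPT1, the rate-limiting enzyme of the hexosamine pathway, read 11.48 and 11.49 in control and 10.86 and 10.86 with treatment (-0.63 ± 0.07, limma adjusted p = 0.0118). Also lower were PRKCSH, the glucosidase II beta subunit (-0.45 ± 0.08), and UGGT2, a glucosyltransferase that senses misfolded glycoproteins (-0.44 ± 0.07). GNPNAT1, the acetyltransferase that follows GFPT1 in the hexosamine pathway, fell by 0.44 ± 0.08, but the mean of its 3 probe sets did not pass (-0.16, limma adjusted p = 0.506).

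Transport into and out of the ER held 4 calls. Of 31 measured genes of signal peptide targeting and translocation, the translocon gene SEC61A2 (0.47 ± 0.09) and EMC6, of the ER membrane complex (0.35 ± 0.07), rose and the signal peptidase gene SPCS3 fell (-0.37 ± 0.07). The share called was 9.68%, against 8.65% of all genes. At an unadjusted p under 0.05, 8 of these 31 were higher and 5 lower (41.9%, against 26.7% of all genes). Of 28 genes of ER-Golgi traffic, the cargo receptor gene TMED10 fell (-0.38 ± 0.07), 0 rose, and 27 did not pass, a share called of 3.57% (1 higher and 5 lower at an unadjusted p under 0.05). Of 17 genes of ER-phagy and ER shape, REEP3 (-0.47 ± 0.07) and the ubiquitin-like modifier UFM1 (-0.45 ± 0.07) fell and 0 rose. The share called was 11.8%, against 8.65% of all genes. At an unadjusted p under 0.05, 3 of these 17 were lower and 0 higher (17.6%, against 26.7% of all genes). The calls of SPCS3 and TMED10 were lost after median centring (limma adjusted p = 0.0669 and 0.0582), and that of EMC6 with a mean-dependent prior (limma adjusted p = 0.0517). With the replicate block, SEC61A2, EMC6, SPCS3, TMED10, REEP3 and UFM1 all lost their calls (limma adjusted p from 0.0537 to 0.0759).

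Most measured genes of the list of PERK branch and ATF4 targets were lower. Of 15 measured genes of this list 11 fell and 0 rose (73.3% called by limma, against 8.65% of all genes). At an unadjusted p under 0.05 (limma), 13 were lower and 0 higher. The median log2 change was -1.06, against -0.16 for the sensors and regulators, and the difference between the lists was not tested. As the list was chosen with earlier results of these data known, its count and median are a description. TRIB3, DDIT4 and DDIT3, which encode a pseudokinase, an mTOR inhibitor and CHOP, were 3.99-fold, 3.54-fold and 3.49-fold lower. Only 2 genes of the list of mRNAs cut by IRE1 in other cell types were measured, and both changes were negative. HGSNAT, a lysosomal acetyltransferase, fell by 0.69 ± 0.07 (limma adjusted p = 0.0113), and TAPBP, of antigen loading, did not pass (-0.27). TAPBP passed with dimmer genes left out (limma adjusted p = 0.0298) or a mean-dependent prior (limma adjusted p = 0.0165).

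**Figure D4:**
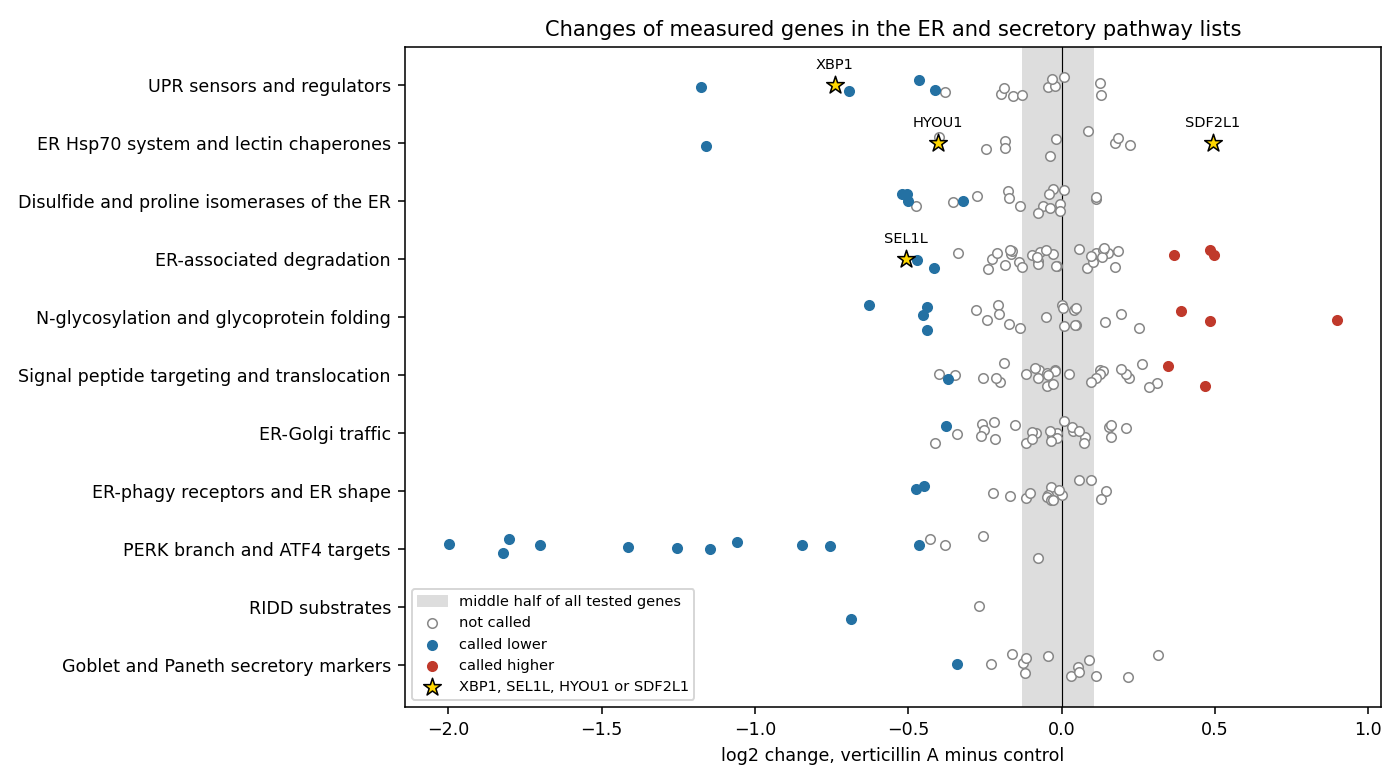
Log2 change (horizontal axis, verticillin A minus control) of each measured gene in the 11 lists (rows), with XBP1, SEL1L, HYOU1 and SDF2L1 as stars, called genes filled and the interquartile range of all tested genes shaded (-0.13 to 0.10). The list of PERK branch and ATF4 targets lies furthest to the left, with a median of -1.06. The degradation list has 3 called genes on the right and 2 on the left besides SEL1L.

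XBP1 is best known in the gut from goblet and Paneth cells, and markers of these cells were taken as a list. Of 14 measured, mean log2 levels ran from 3.63 to 5.40, and only KLF4 passed, lower by 0.34 ± 0.07, a call lost with a mean-dependent prior (limma adjusted p = 0.0821). The second probe set of the Paneth cell marker LYZ read 3.83 and 4.02 in control and 4.53 and 4.60 with treatment, without overlap, whereas the probe set used, which is the brighter, overlapped between groups. The epithelial marker EPCAM read 11.10 and 11.13 in control and 10.94 and 10.94 with treatment, and KRT18 read 10.29 and 10.45 and then 10.44 and 10.44. EPCAM passed, as lower, with a mean-dependent prior only (limma adjusted p = 0.0159). The intestinal markers CDX2 and KRT20 read 5.19 to 5.53 and 4.57 to 4.78 over the 4 arrays, whose medians over all probe sets were 4.59 to 4.62. VIL1 fell by 0.62 ± 0.08 and KRT19 rose by 0.44 ± 0.09 among 11 measured epithelial markers. Of 3 fibroblast, 5 endothelial, 5 leukocyte and 4 plasma cell markers measured, limma called 0 in the main fit, with 0, 0, 0 and 2 at an unadjusted p under 0.05. Their mean levels ran from 3.45 to 4.55, 3.50 to 4.38, 3.52 to 4.60 and 3.73 to 6.79, the last being SDC1, which epithelial cells also express. The sums of their log2 levels were, for fibroblast markers, 11.7 and 11.9 in control against 11.94 and 12.15 with treatment, and for endothelial markers 19.65 and 19.96 against 19.50 and 19.67. For leukocyte markers they were 19.73 and 19.98 against 19.87 and 19.91. For plasma cell markers they were 18.19 and 18.09 against 18.82 and 18.74, so both treated arrays lay higher. By gene, SDC1 changed by 0.345, CD38 by 0.28, IRF4 by 0.055 and MZB1 by -0.039, and all but SDC1 were dim. SDC1 passed, as higher, with dimmer genes left out, median centring or a mean-dependent prior (limma adjusted p = 0.0162, 0.0354 and 0.041). Any part of these markers in the 4 changes was not tested. Fewer cells with a transcript and less of it per cell cannot be told apart in these bulk samples.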

How the data were processed

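RNA from 2 control and 2 verticillin A samples was measured on Affymetrix whole-transcript arrays. The authors deposited 1 log2 value per probe set and array. GCRMA was used, per the submitters' processing notes; its version and the genome build are not stated in the labels, and the log2 scale was read from the range of values. As array medians were nearly equal (4.59 to 4.62), a change in total RNA per cell would not show, and no detection calls were used, so dim genes may understate changes. The platform annotation gave 1 symbol for 16098 of 53617 probe sets, several for 0 and none here for 37519; symbols were updated by gene identifier through RefSeq (GRCh38.p14). The probe set with the highest mean stood for each of 14884 genes.

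limma 3.58.1 (R 4.3.3; lmFit and eBayes, 2 residual and 3.43 prior degrees of freedom) compared the groups without covariates, and p-values were Benjamini-Hochberg adjusted over all 14884 genes with a threshold of 0.05. Log2 changes are verticillin A minus control. The steps were tested on simulated data. Arrays have no read depth, and their number limits the precision. The members and lists were chosen with earlier results of these data known. Named outside the members are 17 fixed ER genes, up to 6 called genes of largest change per list (or 2 uncalled), the 3 nearest in profile, and cell type markers; the text gives part of them. Deviations of samples with the same replicate number hardly went together over the genes (correlation 0.012). This does not show whether the samples were paired in the experiment. Promoter windows were available for 10749 tested genes.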

Additional observations from a re-analysis of the deposited data

How the results depend on the processing

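The alternatives were the mean of a gene's probe sets, fitting and adjusting over every probe set, leaving out genes dimmer than the median, quantile normalization, median centring, a prior that follows the mean level, the replicate number as a block, and leaving out each array. Against 528 higher and 759 lower calls from all arrays, limma gave 6 and 12 fitted and adjusted over every probe set, which also changes the prior variance, 1070 and 1329 without the dimmer genes, 1067 and 1361 with the mean-dependent prior and 228 and 364 with the replicate block. In the ER lists (8 higher, 31 lower) the same settings gave 0 and 5, 13 and 48, 16 and 52, and 3 and 18 with the replicate block; at 0 higher, 14 had an unadjusted p under 0.05. Leaving out 1 array gave 0 to 52 higher and 0 to 105 lower over all genes and 0 to 1 and 0 to 12 in the ER lists. The zeros came without control replicate 1 or 2, where 3715 and 3528 genes had an unadjusted p under 0.05 and the smallest adjusted p was 0.0525 and 0.0502. These fits leave 1 array in a group, assumed to vary like the other pair. Of 52 called named genes, 26 kept their call with the replicate block, among them ERN1, ATF6, CLGN, VCP and UFD1 but not NPLOC4 or HERPUD2, and 5 when fitted over every probe set. The change of HYOU1 moved to -0.22 with probe sets averaged and that of XBP1 to -0.70 after median centring, both by more than 1 SD. No direction reversed in these settings for the 4 members and the 52 genes, of which 50 could be tested without the dimmer genes. This was largely fixed in advance. The groups of the 4 members did not overlap, and the 52 genes were counted because they passed in the main fit.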

Other observations

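Genes that share an exact ER stress element with the members were looked up after the promoters had been searched. Of 10 other tested genes with an exact ERSE, 0 were called higher and 1 lower, with a median log2 change of -0.06, where 8.65% of all genes were called. They include CALR and CANX, the lectin chaperones of the ER, which changed by 0.22 ± 0.07 and -0.18 ± 0.07 (limma adjusted p = 0.114 and 0.185), and FICD, the enzyme that modifies BiP (-0.15 ± 0.09). The one call was SYNPO (-0.78 ± 0.16, limma adjusted p = 0.0471), named after its value was seen. Of 13 other tested genes with an exact ERSE-II, 2 were called higher and 0 lower, with a median of 0.04. These were the glycogen synthase gene GYS1 (0.41 ± 0.08) and SHCBP1 (0.52 ± 0.09), also named after their values were seen. Of 117 other tested genes with an exact UPRE, the element HYOU1 holds, 6 were called higher and 7 lower, with a median of -0.04. Over all genes 8.65% were called. VCP, LIN52 and CCDC117, which appear elsewhere in this text, were among the 6 called higher. None of the 7 called lower is named here.

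The nearest measured genes along the chromosome were also looked up, in RefSeq order. CCDC117, next to XBP1, read 6.83 and 6.57 in control and 7.29 and 7.29 with verticillin A, a rise of 0.59 ± 0.10 (limma adjusted p = 0.0329), while XBP1 was lower. ZNRF3, on the other side, changed by -0.01 ± 0.08. The neighbours of HYOU1, TRAPPC4 and VPS11, changed by 0.14 ± 0.07 and 0.26 ± 0.10 (limma adjusted p = 0.283 and 0.184). Those of SDF2L1, CCDC116 and MIR301B, were near the low end of the scale and overlapped between groups. The nearest measured genes of SEL1L lay 14 and 30 annotated genes away. Of the 8 neighbours, limma called only CCDC117.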
